A study of Mus musculus with 16 samples.

Results

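The comparison described here is the interaction of genotype and endotoxin in mouse heart: for each gene, the change after lipopolysaccharide (LPS) in hearts lacking the adenosine 2A receptor (A2AR) minus the change after LPS in wild-type hearts. It used all 16 of the 16 arrays of the series. The 4 groups were wild-type mice given saline, wild-type mice given LPS, A2AR knockout mice given saline and A2AR knockout mice given LPS, with 4 arrays each. Every animal was a male of 14 weeks on a CD1 background. LPS from E. coli was injected once into the peritoneum at 20 mg/kg, saline was given in the same volume, and ventricular myocardium was taken at 24 h. Knockouts and wild-type littermates came from a sub-colony of a line described earlier, in which the receptor is missing from the whole animal and not from heart cells alone. The genotype of each array rests on its label, since no value of the deleted receptor's transcript is reported here. The labels number the 4 replicates of a group without saying more about them, so p-values measure only the spread between these samples.

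The A2AR is a cell surface receptor for adenosine that couples to the stimulatory G protein and raises cyclic AMP, which activates protein kinase A and the transcription factor CREB. Adenosine accumulates in inflamed and oxygen-poor tissue, and the receptor on neutrophils, macrophages and lymphocytes is known for restraining their release of cytokines. LPS is sensed by Toll-like receptor 4 with its co-receptor CD14, which drives NF-kB and interferon target genes. A gene whose LPS response depends on the receptor has an interaction different from 0: a positive value means a higher LPS-minus-saline difference in knockout hearts, and a negative value a lower one.

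Values are log2 expression levels of 1 probe set per gene for 18193 genes, and the number of arrays limits their precision. Medians over all probe sets lay between 4.62 and 4.67 in every array, and the overall median was 4.64. Levels of 10 cardiomyocyte marker genes averaged 13.51 to 13.96 in each of the 16 arrays, so the labelled tissue's defining markers were high throughout. Some arrays stood apart from their group. Wild-type LPS array 4 differed from the other 3 arrays of its group by 0.464 to 0.573 (standard deviation over all probe sets with 1 gene symbol). Those 3 differed from each other by 0.267 to 0.330. Knockout LPS array 2 differed from its group by 0.403 to 0.524, against 0.260 to 0.322 among the others. Wild-type saline arrays 1 and 4 had mean levels of 7.32 and 8.70 over 10 skeletal muscle markers, against 5.43 to 5.77 in the other 14 arrays. For many of the results below, the value without an array that moves it by over 1.5 times is given beside it.

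No gene's LPS response was called different between the genotypes. Limma called 0 of 18193 genes in the interaction (0%) at an adjusted p under 0.05, and the lowest adjusted p was 0.757, that of Cidec, a lipid droplet protein. At an unadjusted p under 0.05 there were 813 genes (4.47%), where evenly spread p-values would give 5%. Of these, 381 genes had a positive interaction (2.09% of all genes) and 432 a negative one (2.37%). The median interaction over all genes was -0.01 on the log2 scale. The same fit called 3798 genes in the wild-type LPS response (20.9%), 4744 in the knockout LPS response (26.1%) and 6353 in the mean of both responses (34.9%). A p that misses the threshold does not show equal responses, so the intervals were counted as well. The 95% limma interval of the interaction lay inside -1 to 1, a 2-fold difference either way, for 16681 genes (91.7%). The median interval reached 0.36 to each side. Among the 41 genes with a mean response over 4, the interval lay inside those bounds for 11, so the strongest responders were the least bounded.

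The direction of the LPS response was shared wherever both genotypes had a called response. Of 3011 genes called in both, 3011 moved the same way and 0 moved opposite ways. A further 787 genes were called in wild-type hearts alone and 1733 in knockout hearts alone, and none of these was called in the test of the difference. Across the 18193 genes, the responses of the genotypes had a Pearson correlation of 0.921 and a Spearman correlation of 0.763. The responses share no arrays, but all arrays were normalised together, and genes are not independent. The major axis through the points had a slope of 1.09 (knockout on wild-type), and 0.977 without wild-type LPS array 4.

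**Figure D1:**
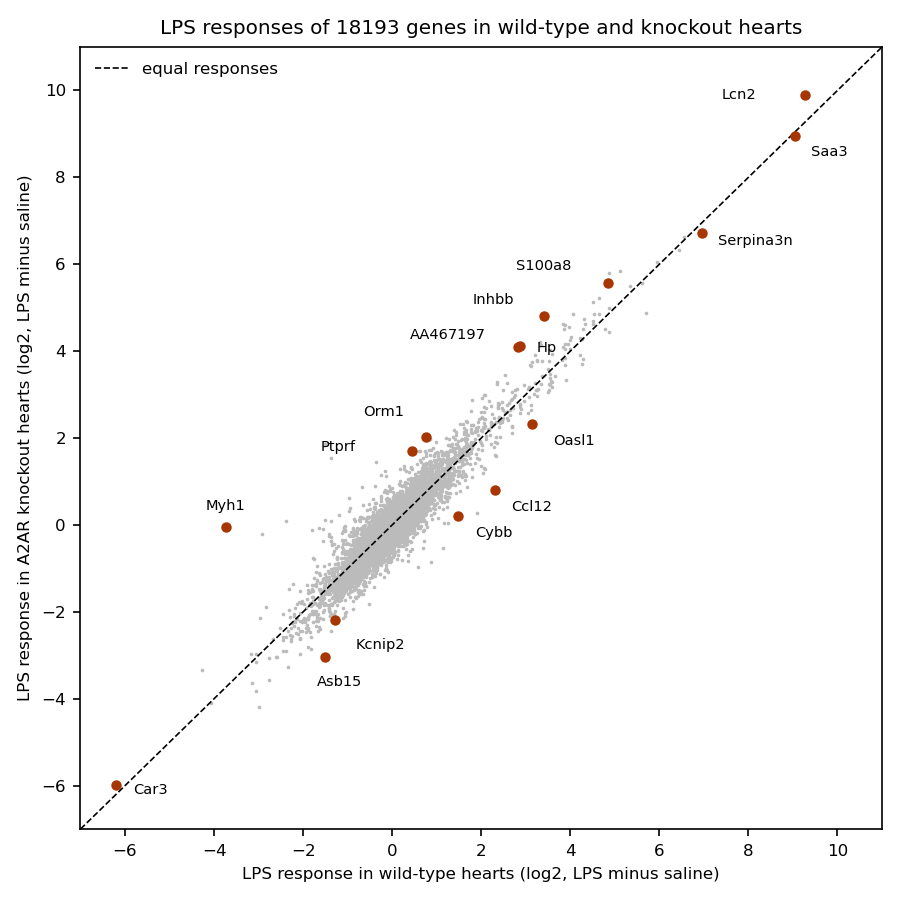
LPS response (LPS minus saline, log2) of each of 18193 genes in wild-type hearts (horizontal axis) and A2AR knockout hearts (vertical axis), each a difference of means of 4 arrays. The dashed line marks equal responses, and some genes named in the text are drawn in red. Lcn2 and Saa3 lie at the top right and Car3 at the bottom left close to the line, while Myh1, high in wild-type saline arrays 1 and 4 alone, lies far above it.

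The 8 genes with the largest mean LPS response had differences between genotypes that were small beside the response. Lcn2, a siderophore-binding protein of innate defence, was at 4.68, 5.18, 4.27 and 3.80 in wild-type saline arrays and at 13.89, 13.80, 13.92 and 13.44 after LPS. Knockout arrays were at 4.13, 3.92, 3.77 and 4.05 after saline and at 13.92, 13.89, 13.86 and 13.79 after LPS. All LPS arrays stood far above all saline arrays, and the genotypes overlapped within each treatment. The interaction of Lcn2 was 0.62 ± 0.29 (standard error), with an interval of 0.00 to 1.24, and 0.38 without wild-type saline array 2. Saa3, an acute-phase apolipoprotein, rose by 9.04 without and 8.96 with the knockout, and its interaction was -0.08 ± 0.26. Serpina3n, a serine protease inhibitor of the acute phase, had an interaction of -0.23 ± 0.25, and -0.03 without knockout LPS array 2. The metallothionein gene Mt2 had an interaction of -0.02 ± 0.45, and wild-type LPS array 4 read 11.22 while the highest array of that group read 13.22.

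The other 4 of these genes had wider intervals. Cxcl9, a chemokine induced by interferon gamma, had an interaction of -0.12 with an interval of -1.22 to 0.98. Ifit1, an antiviral RNA-binding protein, had 0.12 with an interval of -1.25 to 1.48, and its wild-type LPS arrays spread over 9.82, 12.08, 12.14 and 9.59. BC023105 had an interaction of 0.07 ± 0.56. Car3, a fat-rich carbonic anhydrase, fell by 6.20 in the wild type and by 5.99 in the knockout. After LPS its wild-type arrays read 3.71, 3.88, 3.43 and 7.19 and its knockout arrays 5.14, 3.90, 3.16 and 2.91. Array 4 of the wild-type group was alone at a high level, and the interaction of 0.21 became 1.08 without it.

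The genes of smallest interaction p were often ones whose LPS-minus-saline difference was near 0 in 1 genotype. None was called. Cidec, which promotes the fusion of lipid droplets, was at 4.35, 4.53, 4.73 and 4.97 in wild-type saline hearts and at 3.63, 3.44, 3.34 and 3.75 after LPS. In knockout hearts it was at 3.67, 3.67, 3.71 and 3.40 after saline and at 3.52, 3.41, 3.62 and 3.28 after LPS. The wild-type saline arrays were high and apart from all others, so Cidec fell by 1.11 in wild-type hearts while the knockout difference was -0.15. Knockout minus wild-type for Cidec was -1.04 after saline, a called difference (adjusted p = 0.005 by limma), and -0.09 after LPS. Its interaction was 0.95 ± 0.18, with an adjusted p = 0.757 by limma (5.54e-05 before adjustment). Of its 16 values, 14 lay under the overall median of 4.64.

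Txndc11, a thioredoxin-domain protein of the endoplasmic reticulum, had the opposite layout. It was at 7.02, 7.07, 7.24 and 7.18 in wild-type saline arrays and at 6.82, 6.98, 7.15 and 6.81 after LPS, against 6.45, 6.62, 6.97 and 6.46 and then 7.50, 7.61, 7.30 and 7.15 in knockout arrays. Knockout arrays were lower than wild-type ones after saline, and after LPS the lowest knockout array equalled the highest wild-type one to 2 decimals. The gene rose by 0.76 in knockout hearts, the wild-type difference was -0.19, and the interaction was 0.95 ± 0.19. Rbfox1, a splicing regulator of heart and brain, fell in both genotypes, by 0.53 and by 1.32. Its saline arrays lay between 8.57 and 8.89. After LPS its wild-type arrays read 8.07, 7.92, 8.18 and 8.30 and its knockout arrays 7.16, 7.62, 7.53 and 7.55. The LPS arrays of the genotypes did not overlap, and the interaction was -0.79 ± 0.16.

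Nectin3, a cell adhesion molecule of adherens junctions, was at 6.51, 6.73, 6.78 and 6.58 in wild-type saline arrays and fell to 6.03, 5.84, 5.98 and 5.29 after LPS. Knockout arrays read 6.44, 6.19, 6.29 and 6.58 after saline and 6.67, 6.47, 6.46 and 6.43 after LPS. The wild-type LPS arrays were thus the low ones, and the interaction was 1.00 ± 0.21, or 0.83 without wild-type LPS array 4. Ptprf, a receptor tyrosine phosphatase, rose by 1.71 in knockout hearts, to 8.45, 8.58, 8.35 and 8.71. In wild-type LPS arrays it read 8.22, 7.04, 7.02 and 7.66, spread from the saline level to just under the knockout LPS levels, and its interaction was 1.26 ± 0.32.

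Trim63, also known as MuRF1, is a ubiquitin ligase of striated muscle that marks sarcomere proteins for breakdown. It was at 10.36, 10.43, 10.38 and 10.34 in wild-type saline arrays and rose to 10.73, 10.61, 10.86 and 10.80 after LPS. In knockout hearts it read 10.32, 10.61, 10.46 and 10.60 after saline and 10.32, 10.20, 10.45 and 10.50 after LPS, so that the knockout arrays overlapped. The interaction was -0.51 ± 0.13, and leaving out any single array kept it between -0.56 and -0.45. Crebrf, a regulator of CREB-family transcription factors, fell by 0.60 in knockout hearts with a wild-type difference of 0.14, and its interaction was -0.75 ± 0.17. Ypel3, a growth-inhibitory gene, rose by 0.76 in wild-type hearts, and its knockout difference was 0.06.

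**Figure D2:**
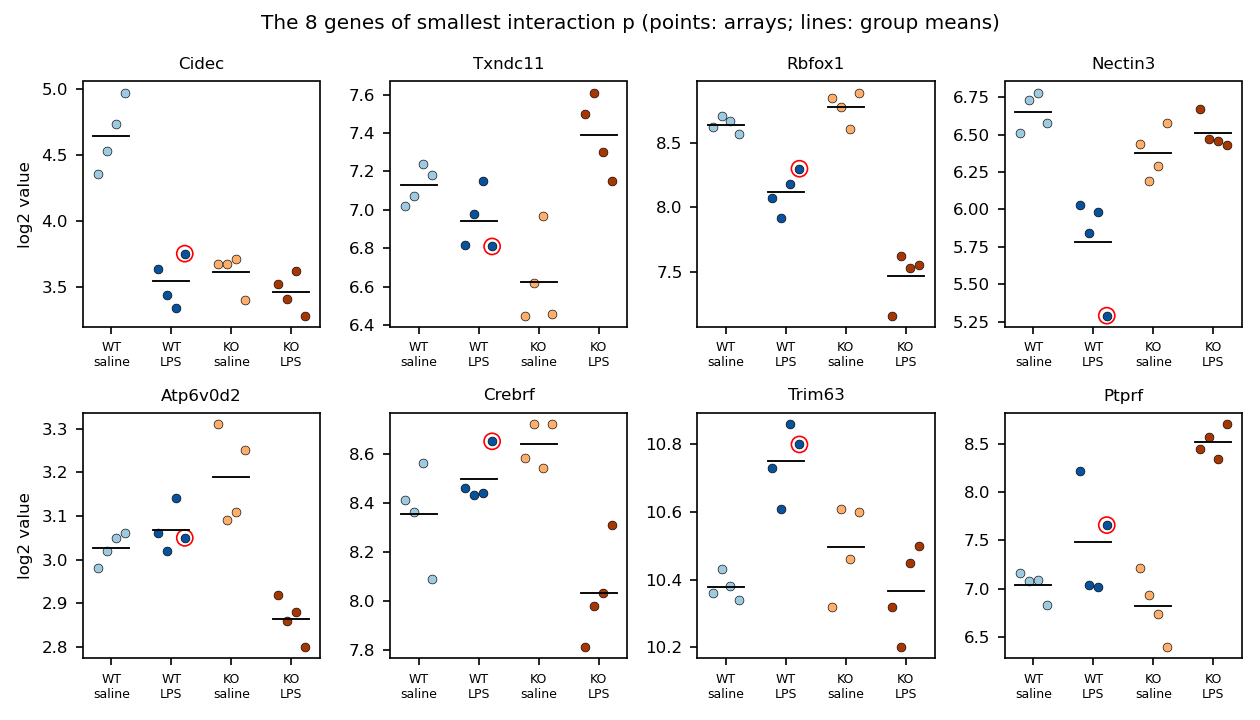
Log2 values of the 8 genes with the smallest interaction p in each array of the 4 groups (points), with group means (lines) and wild-type LPS array 4 ringed in red. In Cidec the wild-type saline arrays are the high ones, in Nectin3 the wild-type LPS arrays are the low ones, and in Rbfox1 the knockout LPS arrays are the low ones. None of these interactions was called (lowest adjusted p 0.757).

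The rest of the 24 genes of smallest p were Atp6v0d2, Ptger3, Znf41-ps, Gja5, Snhg11, Abhd11os, Nfasc, Nav3, Hecw2, Slco5a1, Tslp, Gm17762, C030013G03Rik, Snhg14, Tmem45b and Dcstamp. Ptger3 encodes a prostaglandin E2 receptor that lowers cyclic AMP, and it read 3.63, 3.56, 3.55 and 3.95 in wild-type saline arrays and 2.79, 2.83, 2.95 and 3.02 after LPS. Knockout arrays read 3.13, 3.05, 3.22 and 3.05 and then 2.88, 2.90, 2.82 and 2.66, and the interaction was 0.48 ± 0.12. All these levels lay under the overall median of 4.64. Gja5, the gap junction protein connexin 40 of conduction tissue and arteries, had an interaction of -0.68 ± 0.18, also at levels under that median. Snhg14, a noncoding host transcript of small nucleolar RNAs, had the largest interaction of the 24, 1.57 ± 0.44. It read 5.96, 6.13, 6.51 and 5.78 in wild-type and 8.13, 9.04, 6.92 and 7.94 in knockout LPS arrays, which did not overlap, while after saline it read 6.88, 6.89, 7.33 and 7.11 against 7.74, 7.13, 7.11 and 7.57.

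The size of the interaction gave a different set of genes from its p. In 68 genes it was beyond 1 in either direction, positive in 44 and negative in 24. Among LPS-responsive genes, meaning those called in the mean response, the 5 largest positive interactions were those of Golt1b, Inhbb, AA467197, Orm1 and Ptprf. The 5 largest negative ones were those of Asb15, Ccl12, Txlnb, Cybb and Pnpla7. Inhbb, the beta B subunit of activins and inhibins, read 9.31, 9.86, 10.14 and 4.83 in wild-type and 9.93, 10.28, 9.54 and 8.41 in knockout LPS arrays, against 4.57 to 5.55 in saline arrays. Wild-type LPS array 4 alone stayed at the saline level. The interaction was 1.40 ± 1.14 with that array and 0.16 without it.

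Several of these genes depended on the same array. AA467197 read 5.54, 8.66, 7.96 and 3.67 in wild-type LPS arrays and 8.70, 9.04, 6.89 and 5.81 in knockout ones, and its interaction of 1.27 became 0.34 without wild-type LPS array 4, 0.79 without knockout LPS array 2 and 2.00 without wild-type LPS array 2. Ccl12, a monocyte-attracting chemokine, read 7.51, 5.33, 4.56 and 8.77 in wild-type and 5.27, 4.59, 6.41 and 5.65 in knockout LPS arrays. Here the same array was the highest, and the interaction of -1.49 became -0.75 without it. Cybb, the catalytic subunit of the phagocyte NADPH oxidase, read 7.51, 6.74, 6.39 and 8.81 against 6.50, 6.12, 6.89 and 6.81, and its interaction of -1.26 became -0.78. The macrophage and monocyte markers moved with both: their mean level was 7.08, 6.81, 6.47 and 7.75 in wild-type and 6.79, 6.23, 7.09 and 7.0 in knockout LPS arrays. The median interaction of the 10 measured markers was -0.17, 7 of them were negative and 0 had an unadjusted p under 0.05. That median was -0.03 without wild-type LPS array 4, and -0.02 without knockout LPS array 2, with 5 markers positive and 5 negative. It was -0.26 without wild-type LPS array 1 and -0.31 without wild-type LPS array 3. The fibroblast markers ranked the LPS arrays of each genotype in the same order. Their mean level was 9.39, 9.10, 8.64 and 9.97 in wild-type and 9.24, 8.52, 9.41 and 9.25 in knockout LPS arrays. The part of either cell type in the result was not tested, and in whole tissue fewer cells of a type and less RNA per cell cannot be told apart.

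In several other genes the knockout LPS arrays were widely spread. Asb15, a muscle ankyrin-repeat protein of the SOCS box family, read 9.38, 9.06, 7.55 and 9.39 in wild-type and 7.13, 4.99, 8.42 and 9.48 in knockout LPS arrays. Its interaction was -1.53 ± 0.91, and -0.69 without knockout LPS array 2, the lowest. Txlnb, a muscle taxilin, read 10.42, 10.30, 9.49 and 10.41 in wild-type and 8.99, 7.80, 9.80 and 10.09 in knockout LPS arrays. Its interaction of -1.30 ± 0.51 became -0.85 without knockout LPS array 2. Orm1, an acute-phase plasma protein, read 5.12, 4.99, 4.15 and 4.39 in wild-type LPS arrays against 6.77, 5.59, 6.18 and 4.12 in knockout ones, from saline levels of 3.58 to 3.97. Knockout LPS array 4 lay just under the lowest wild-type LPS array, and the interaction of 1.26 ± 0.53 became 1.78 without it. Pnpla7, a lysophospholipase, rose by 1.26 in wild-type hearts to 7.61, 7.18, 7.15 and 8.38, and its knockout difference was 0.05. Its interaction was -1.21 ± 0.35, and -0.94 without wild-type LPS array 4. Golt1b, a Golgi transport protein, had a wild-type difference of -1.55, a knockout difference of -0.09 and an interaction of 1.46 ± 0.56.

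**Figure D3:**
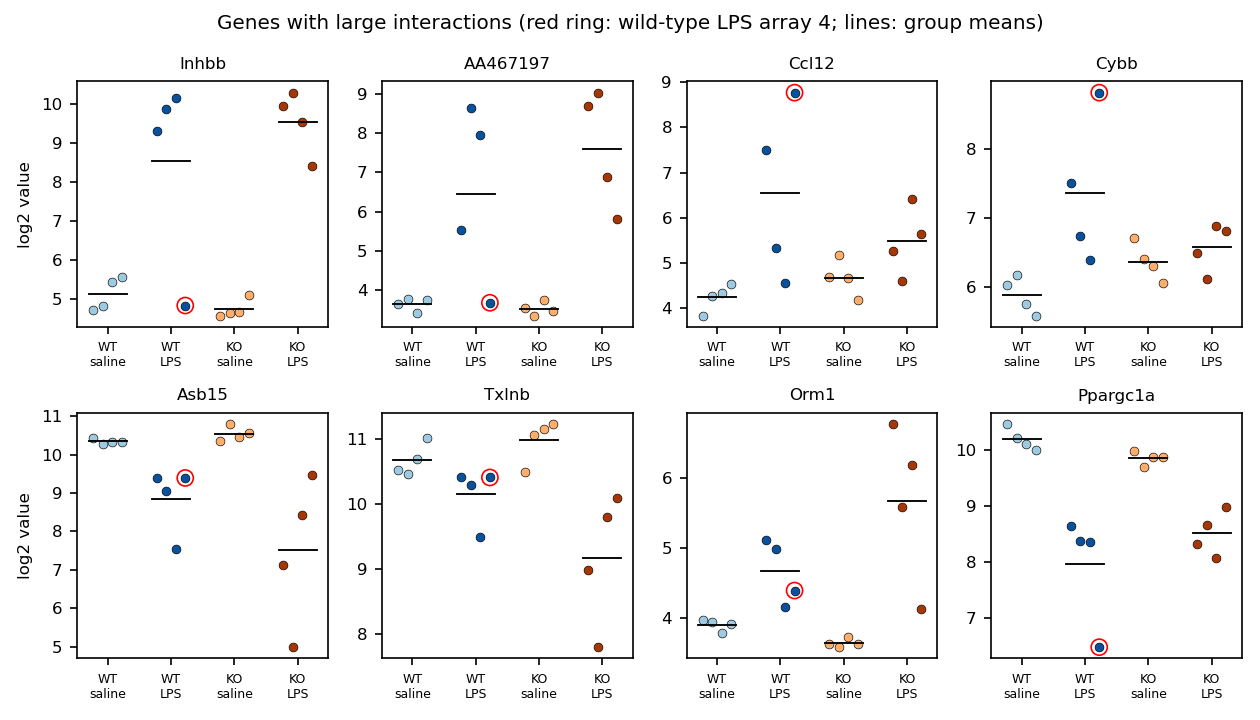
Log2 values of Inhbb, AA467197, Ccl12, Cybb, Asb15, Txlnb, Orm1 and Ppargc1a in each array of the 4 groups (points), with group means (lines) and wild-type LPS array 4 ringed in red. The ringed array reads 4.83 for Inhbb, at the saline level, and is the highest of its group for Ccl12 (8.77) and Cybb (8.81). In Asb15 and Txlnb the lowest knockout LPS array (4.99 and 7.80) is array 2.

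Responses were on the whole slightly larger in knockout hearts, and this depended on single arrays, most of all on wild-type LPS array 4. Among the 6353 LPS-responsive genes, the response was larger in knockout hearts for 62.2%. The share was 62.2% among the 2800 that were higher after LPS and 62.2% among the 3553 that were lower. It was 58.9% where the mean response was under 0.5, then 63.7%, 68.4% and 68.6% in the steps 0.5 to 1, 1 to 2 and 2 to 4, and 75.6% of 41 genes over 4. Without wild-type LPS array 4, 48.5% of 7115 LPS-responsive genes had the larger response in knockout hearts, and over 4 it was 29.8%. Without knockout LPS array 2 the share was 56.7%, and 53.1% among genes lower after LPS. Without knockout LPS array 4 the share was 69.2%. The median excess over all LPS-responsive genes was 0.07 on the log2 scale. It was 0.03 without knockout LPS array 2 and -0.01 without wild-type LPS array 4.

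The same is seen array by array. A response score was formed for each array as the mean shift of the LPS-responsive genes in the direction of their response, relative to the wild-type saline mean. Wild-type LPS arrays scored 0.64, 0.75, 0.80 and 0.44 (mean 0.66 ± 0.16, SD, n = 4). Knockout LPS arrays scored 0.77, 0.85, 0.72 and 0.58 (mean 0.73 ± 0.11, SD, n = 4). The groups overlapped, and array 4 was the lowest of each. Saline arrays scored between -0.01 and 0.03 in both genotypes.

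**Figure D4:**
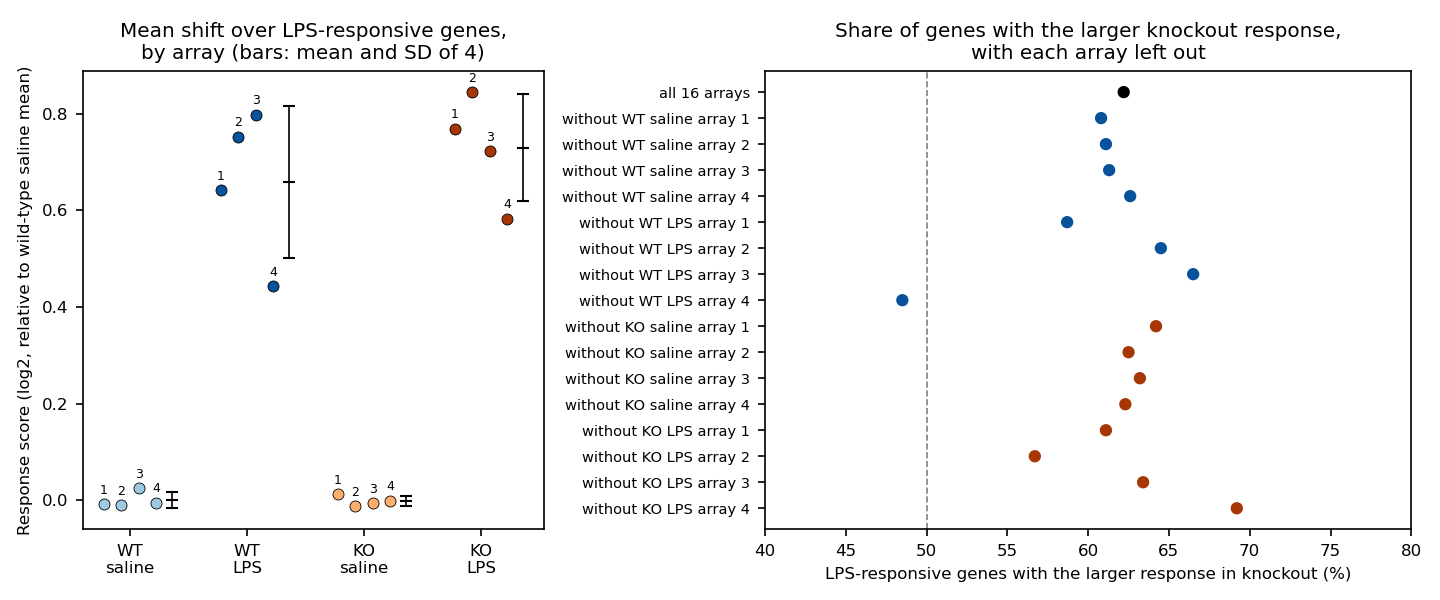
Left, the response score of each array (log2, relative to the wild-type saline mean; numbers are replicate numbers, bars the mean and SD of 4 arrays); LPS arrays of the genotypes overlap, and wild-type LPS array 4 is lowest at 0.44. Right, the percent of LPS-responsive genes with the larger response in knockout hearts with all arrays (62.2%) and with each array left out, with a dashed line at an even share; it is 48.5% without wild-type LPS array 4.

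No gene of the adenosine and cyclic AMP pathway, which the receptor acts through, was called in the interaction. The interaction called 0 of all 18193 genes (0%), so the absence of calls is not particular to this pathway. Of the other adenosine receptors, Adora3 was the 1 measured here. It read 4.62 to 5.13 in all 16 arrays, and its interaction was 0.05 ± 0.14. The 11 measured genes of adenosine production, uptake and breakdown had a median interaction of 0.00, with 0 at an unadjusted p under 0.05 in either direction. The 15 measured cAMP-CREB target genes had a median of 0.25 with 12 of them positive, and without wild-type LPS array 4 it was 0.01 with 8 positive. The interval lay inside -1 to 1 for 6 of the 15. Klf4, a transcription factor of endothelium and smooth muscle, was the 1 among them at an unadjusted p under 0.05, with an interaction of 0.74 ± 0.32. Ppargc1a, the coactivator of mitochondrial genes that CREB induces, fell by 2.23 in the wild type and by 1.35 in the knockout. It read 8.65, 8.37, 8.35 and 6.48 in wild-type and 8.32, 8.66, 8.08 and 8.98 in knockout LPS arrays, and the interaction of 0.88 became 0.39 without wild-type LPS array 4. The mean of all its probe sets turned the direction, to -0.19.

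Enzymes and receptors around cyclic AMP were, like all other genes, not called either. Among 15 phosphodiesterases, which break cyclic nucleotides down, Pde8b had an interaction of 0.54 ± 0.19 and the median was 0.15, or 0.05 without wild-type LPS array 3. Among 15 measured adrenergic receptors, adenylyl cyclases and protein kinase A subunits, Prkar2b, a regulatory subunit of the kinase, had 0.35 ± 0.16 and the median was 0.08. Immediate early genes had a median of 0.25 over 21 genes, 19 of them positive, and the median was 0.05 without wild-type LPS array 4 and 0.11 without knockout LPS array 2. Across the lists below, these counts are read against the 4.47% of all genes at an unadjusted p under 0.05 and the median of -0.01. Signs, in these lists and below, are read against 8597 positive and 9594 negative interactions among all 18193 genes.

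Genes of MHC class II, which present antigen to helper T cells, had the lowest median interaction of the 55 lists. It was -0.41 over 9 measured genes, 8 of them negative, and stayed between -0.46 and -0.30 with any single array left out. The list mean was 5.65, 5.79, 5.84 and 5.84 in wild-type saline arrays and 5.67, 5.92, 5.71 and 6.07 after LPS. The knockout mean was 5.96, 5.82, 5.69 and 5.78 after saline and 5.64, 5.36, 5.66 and 5.58 after LPS. Knockout LPS arrays lay below all wild-type LPS arrays, but narrowly: the highest knockout array was at 5.66 and the lowest wild-type one at 5.67. The saline arrays overlapped. H2-Aa, H2-Ab1 and H2-Eb1 were at an unadjusted p under 0.05 and none was called.

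These 3 genes encode chains of the classical class II molecules. H2-Ab1 read 7.20, 7.52, 7.14 and 7.66 in wild-type and 6.87, 6.64, 6.89 and 6.71 in knockout LPS arrays, with saline levels of 7.17 to 7.62 and 7.21 to 7.92. It fell by 0.70 in knockout hearts, the wild-type difference was -0.10, and the interaction was -0.60 ± 0.23. H2-Aa fell in both genotypes, by 0.99 and by 1.60. It read 6.80, 7.29, 7.03 and 7.56 in wild-type and 6.75, 6.46, 6.90 and 6.62 in knockout LPS arrays, which overlapped, and its interaction was -0.61 ± 0.23. H2-Eb1 read 4.54 to 4.60 in wild-type and 4.26 to 4.40 in knockout LPS arrays, near the overall median, and its interaction was -0.41 ± 0.14. Macrophage and monocyte markers, whose cells carry class II, had a median interaction of -0.17 (-0.02 without knockout LPS array 2 and -0.31 without wild-type LPS array 3), and B cell markers 0.04; their part in the class II values was not tested.

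Class II promoters are known for an X box, whose second element resembles the cyclic AMP response element (CRE) bound by CREB, and for a Y box bound by NF-Y. The 150 bases before the start of H2-Aa and H2-Eb1 are shown so that these letters can be read next to the values. Sequences are from RefSeq on GRCm38.p6, H2-Aa from chr17:34287824-34287973 on the minus strand and H2-Eb1 from chr17:34305717-34305866 on the plus strand, 5′ to 3′. Capitals mark exact matches on either strand to the CRE letters TGACGTCA and the Y box letters CTGATTGG, which do not overlap each other.
H2-Aa: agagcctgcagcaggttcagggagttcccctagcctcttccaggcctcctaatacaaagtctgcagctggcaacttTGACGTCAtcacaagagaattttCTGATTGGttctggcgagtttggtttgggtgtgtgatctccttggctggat
H2-Eb1: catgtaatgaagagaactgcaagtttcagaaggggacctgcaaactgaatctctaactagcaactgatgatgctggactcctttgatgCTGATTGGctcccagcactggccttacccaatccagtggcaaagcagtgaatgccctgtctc
In H2-Aa the CRE match starts 74 bases and the Y box match 51 bases before the gene start. In H2-Eb1 the Y box match starts 62 bases before it.

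The same letters were searched in the 250 bases before the start in 32851 RefSeq promoters. The CRE was in 508 (1.55%) and the Y box in 1258 (3.83%). Of the 6 class II genes with a promoter entry, 3 had the Y box (H2-Aa, H2-Eb1 and H2-Oa) and 1 had the CRE. The 361 tested genes with a CRE had a median interaction of -0.01, with 4.16% at an unadjusted p under 0.05 (8 positive, 7 negative). The 805 with a Y box had a median of -0.01 and 4.84% (17 positive, 22 negative). Both shares lay near the 4.47% of all genes.

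Innate sensing and interferon genes responded in both genotypes, and none was called in the interaction, where 0 of all 18193 genes were called. Of all genes tested, 9.28% rose and 11.6% fell in the wild type, and 11.4% rose and 14.7% fell in the knockout. All 26 interferon-stimulated genes measured here rose in the wild type, and 24 rose in the knockout. Their median interaction was -0.28, 18 were negative, and 2 were at an unadjusted p under 0.05, Eif2ak2 and Mx1 (-0.66, and -0.39 without wild-type LPS array 4). The interval lay inside -1 to 1 for 9 of the 26, so larger differences remain possible for the others. Eif2ak2, the kinase PKR that senses double-stranded RNA, rose by 1.44 and 0.74. It read 6.45, 7.18, 7.32 and 6.85 in wild-type and 6.47, 6.31, 6.55 and 6.53 in knockout LPS arrays, with the wild-type array 1 inside the knockout range, and its interaction was -0.70 ± 0.21. Oasl1, an antiviral protein of the oligoadenylate synthetase family, rose by 3.15 and 2.33, and its interaction of -0.82 became -0.48 without wild-type LPS array 2. The median of this list was -0.46 without wild-type LPS array 1, and 0.02 and -0.04 without arrays 2 and 3 of that group. It was -0.17 without wild-type saline array 1 and -0.18 without knockout LPS array 4.

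The guanylate-binding and immunity-related GTPases, which act against intracellular pathogens, rose in 9 of 9 measured genes in each genotype. All 9 interactions were positive, with a median of 0.25 and 0 at an unadjusted p under 0.05, and 3 of the intervals lay inside -1 to 1. The median was 0.04, 0.58, 0.54 and -0.05 with wild-type LPS arrays 1, 2, 3 and 4 left out in turn. Igtp rose by 5.11 and 5.85, and its interaction was 0.74 ± 0.41, or 0.48 without wild-type LPS array 4. The 13 measured genes of MHC class I processing rose in each genotype, with a median interaction of -0.03. Among 26 Toll-like receptor and NF-kB genes the median was -0.04. In that list Nfkbie, an inhibitor of NF-kB, rose by 2.07 and 1.30 (interaction -0.77 ± 0.26). Cd14, the LPS co-receptor, rose by 2.28 and 1.79. It read 8.21, 8.53, 8.27 and 8.50 in wild-type and 8.05, 7.61, 8.26 and 7.86 in knockout LPS arrays, which overlapped narrowly, and its interaction was -0.49 ± 0.20.

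Acute-phase, cytokine and chemokine genes had interactions in both directions. Hp, the haemoglobin-binding acute-phase protein haptoglobin, had an interaction of 1.26 ± 0.37. It read 7.08, 6.64, 6.84 and 7.32 in wild-type and 5.44, 5.53, 5.70 and 5.58 in knockout saline arrays. After LPS it read 10.13, 9.95, 9.34 and 9.93 in wild-type and 10.25, 9.01, 10.32 and 9.17 in knockout arrays. The genotypes were apart after saline and overlapped after LPS. Neither the saline difference nor the interaction of Hp was called. The 17 measured acute-phase and secreted innate genes had a median of -0.08. Among 28 measured cytokines and receptors, Il1r2, the decoy receptor of interleukin-1, rose by 1.20 and 1.69 (interaction 0.49 ± 0.22), and Il10rb, a subunit of the interleukin-10 receptor, fell by 0.76 and by 1.26 (interaction -0.51 ± 0.22, and -0.32 without knockout LPS array 2). Ccl11, an eosinophil attractant, fell by 1.12 in knockout hearts, with a wild-type difference of -0.28 and an interaction of -0.85 ± 0.31. Neutrophil-attracting chemokines, a list that includes the receptor Cxcr2, had a median of 0.37 over 6 genes. That median turned to -0.24 without wild-type LPS array 4 and was 0.13 without knockout LPS array 2. Of 13 measured complement genes 11 had a negative interaction, with a median of -0.25 and 0 at an unadjusted p under 0.05. That median was -0.14 without wild-type LPS array 4 and -0.14 without knockout LPS array 2.

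Of 10 measured neutrophil markers, 5 rose in the wild type and 6 in the knockout. S100a8, a calcium-binding protein abundant in neutrophils, read 9.34, 8.76, 8.64 and 8.49 in wild-type and 9.84, 9.57, 9.30 and 9.37 in knockout LPS arrays, from saline levels of 3.81 to 4.23. Wild-type array 1 lay inside the knockout range, and the interaction was 0.73 ± 0.24. Their mean level was 5.86, 5.45, 5.49 and 5.29 in wild-type and 6.01, 6.02, 5.74 and 5.75 in knockout LPS arrays. Of these markers 6 were LPS-responsive, and all 6 had the larger response in knockout hearts, against 62.2% of all LPS-responsive genes. The median interaction over the 10 markers was 0.18, and 0.30 without wild-type LPS array 1.

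No gene of heart muscle metabolism was called in the interaction, where 0 of all 18193 genes were called. All 23 measured genes of the tricarboxylic acid cycle and related enzymes, Idh1 and Pdhb among them, had a negative interaction. Their median was -0.15, with 0 at an unadjusted p under 0.05. Among all LPS-responsive genes lower after LPS, 62.2% had a negative interaction, which there means the larger response in knockout hearts. The wild type had 7 of the 23 genes called lower after LPS and the knockout 16, where 11.6% and 14.7% of all genes were called lower. The list mean was 11.59 ± 0.06 in wild-type and 11.43 ± 0.27 in knockout LPS hearts (SD, n = 4), so the knockout arrays spread more than the groups differed, and the median was -0.05 without knockout LPS array 2, with 18 negative. Oxidative phosphorylation genes had a median of -0.04 over 28 genes, all with intervals inside -1 to 1, and Uqcrc2, a subunit of complex III, had -0.23 ± 0.08. Fatty acid oxidation genes had a median of -0.06 over 24 genes, with 0 at an unadjusted p under 0.05.

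Lipid droplet and lipolysis genes had a median of 0.29 over 16 genes, between 0.20 and 0.32 with single arrays left out. Plin5, which coats lipid droplets and ties them to mitochondria, read 10.84, 11.19, 10.52 and 10.65 in wild-type and 11.43, 11.13, 10.86 and 11.47 in knockout LPS arrays. It rose by 1.06 in knockout hearts, the wild-type difference was 0.35, and the interaction was 0.71 ± 0.22. Cidec is in this list too. The adipocyte markers, which share Cidec, had a median of 0.30 over 6 genes and 0.78 without wild-type LPS array 4 (0.48 without knockout LPS array 4). Their mean level was 7.58, 7.57, 7.84 and 7.99 in wild-type and 6.90, 7.23, 7.33 and 6.81 in knockout saline arrays, which did not overlap, and their part in the Cidec value was not tested. Adipoq, the fat hormone adiponectin, fell by 4.27 and by 3.33, with an interaction of 0.94 ± 0.57, or 1.41 without wild-type LPS array 4.

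Insulin signalling and protein breakdown genes at an unadjusted p under 0.05 were all negative. There were 3 among 19 insulin and IGF signalling genes, of which 8 were positive and 11 negative with a median of -0.12. Without wild-type LPS array 4, 12 were positive and 7 negative, and the median was 0.07. Pik3ca, the catalytic subunit of phosphoinositide 3-kinase, fell by 0.63 in knockout hearts with a wild-type difference of -0.10 (interaction -0.53 ± 0.18). Irs1, the insulin receptor's docking protein, fell by 0.80 with -0.16 in wild-type hearts, and Foxo3 had an interaction of -0.49 ± 0.23, or -0.32 without wild-type LPS array 4. Of 17 genes of muscle atrophy, proteasome and autophagy, 13 were negative with a median of -0.10, and Trim63, Gabarapl1 and Ctsl were the 3 at that threshold. Without knockout LPS array 4 the median was -0.25, and without wild-type LPS array 2 it was -0.05. Ctsl, a lysosomal protease, rose by 1.63 and 1.12 (interaction -0.51, and -0.28 without knockout LPS array 2), and Gabarapl1, a protein of the autophagosome, had an interaction of -0.60 ± 0.22.

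Contractile genes had a median interaction of 0.00 over 22 genes, and LPS lowered 11 of them in the wild type and 10 in the knockout, against the 11.6% and 14.7% of all genes. Lmod2, which lengthens actin filaments, fell by 0.39 in knockout hearts with a wild-type difference of 0.00. Tcap, the titin cap, fell by 0.81 with -0.32 in wild-type hearts, and its interaction of -0.49 became -0.32 without wild-type LPS array 4. Casq2, which stores calcium in the sarcoplasmic reticulum, fell by 1.13 and by 0.85 (interaction 0.29 ± 0.11). Kcnip2, a subunit of the transient outward potassium channel, read 8.00, 8.16, 8.71 and 9.56 in wild-type and 8.03, 7.89, 7.39 and 7.42 in knockout LPS arrays, from saline levels of 9.63 to 10.02. It fell by 1.28 and by 2.19, and the interaction of -0.91 ± 0.35 became -0.59 without wild-type LPS array 4. Ion channels had a median of -0.18 over 20 genes, 15 of them negative, and -0.08 with 13 negative without knockout LPS array 2. Ankrd1, a stress-induced muscle ankyrin protein, rose by 1.09 and 0.57 (interaction -0.52 ± 0.22).

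Extracellular matrix and vessel wall genes had mostly positive interactions, and none was called, nor was any other gene. The median was 0.23 over 31 extracellular matrix genes, 25 positive, and 0.12 without wild-type LPS array 3. Col4a2, a chain of basement membrane collagen, read 10.99, 10.93, 11.07 and 10.82 in wild-type and 11.38, 11.42, 11.22 and 11.01 in knockout LPS arrays. It rose by 0.63 and 1.12, and its interaction was 0.49 ± 0.17. The 10 smooth muscle and pericyte markers were all positive with a median of 0.27, or 0.15 without wild-type LPS array 3 and 0.42 without wild-type LPS array 4. Acta2, smooth muscle actin, fell by 1.65 and by 1.11. Of 23 heat shock and unfolded protein response genes, 14 were positive and 9 negative, with a median of 0.11. It was 0.05 without knockout LPS array 1 or array 2 and 0.19 without array 4 of that group, and 1 gene in each direction had an unadjusted p under 0.05. Hspa5, the chaperone BiP of the endoplasmic reticulum, rose by 0.60 in knockout hearts, the wild-type difference was 0.18, and the interaction was 0.42 ± 0.12. Herpud1, which acts in the removal of misfolded proteins from the same compartment, had -0.69 ± 0.29, and -0.55 without wild-type LPS array 4.

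Glucocorticoid-responsive genes were split. Fkbp5, a co-chaperone of the glucocorticoid receptor, rose by 3.25 and 3.80 (interaction 0.55 ± 0.25). Klf15, a metabolic transcription factor of the heart, read 8.29, 8.39, 8.67 and 9.28 in wild-type and 7.98, 7.94, 7.97 and 8.42 in knockout LPS arrays, with an interaction of -0.84 ± 0.29. The median over 16 genes was 0.21 and turned to -0.13 without wild-type LPS array 4. It was 0.04 and 0.02 without wild-type saline arrays 1 and 3, and 0.08 without knockout LPS array 2. Among 18 clock genes the median was -0.21, with 7 positive and 11 negative. It was -0.33 without wild-type saline array 1 and -0.08 without wild-type saline array 4. The list pools the clock and its outputs, so its median does not stand for 1 direction of the clock. Its mean level was 7.10 to 7.40 in wild-type and 7.41 to 7.63 in knockout saline arrays, which did not overlap. After LPS it was 6.82 to 7.12 and 6.99 to 7.17, which overlapped. Arntl, a core activator of the circadian clock, had an interaction of 1.10 ± 0.51. Arntl was the 1 clock gene at an unadjusted p under 0.05. It read 5.63, 6.47, 7.53 and 7.83 in wild-type and 5.0, 5.45, 5.04 and 5.64 in knockout saline arrays, so the wild-type saline arrays were themselves widely spread. The amino acid transporter Slc38a1 had knockout arrays above the wild-type ones after both treatments. It read 6.65 to 6.80 in wild-type and 7.06 to 7.42 in knockout saline arrays, and 5.42 to 6.30 and 6.88 to 7.29 after LPS. Its interaction was 0.64 ± 0.22.

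Skeletal muscle markers had the highest median interaction of the 55 lists, 0.68 over 10 genes, and it moved with 2 saline arrays. Myh1, a fast skeletal myosin, read 9.0, 2.90, 2.73 and 11.37 in wild-type saline arrays and 2.63 to 2.90 in the other 12. Its interaction of 3.68 ± 1.86 was the highest of all genes and has an interval of -0.24 to 7.61. It was 2.06 without wild-type saline array 4, a value that still includes wild-type saline array 1 at 9.0. Every array other than these 2 read 2.63 to 2.90. The list median was 0.27 without wild-type saline array 4, with array 1 of that group still included. In 22 of the 55 lists no gene had an unadjusted p under 0.05.

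**Figure D5:**
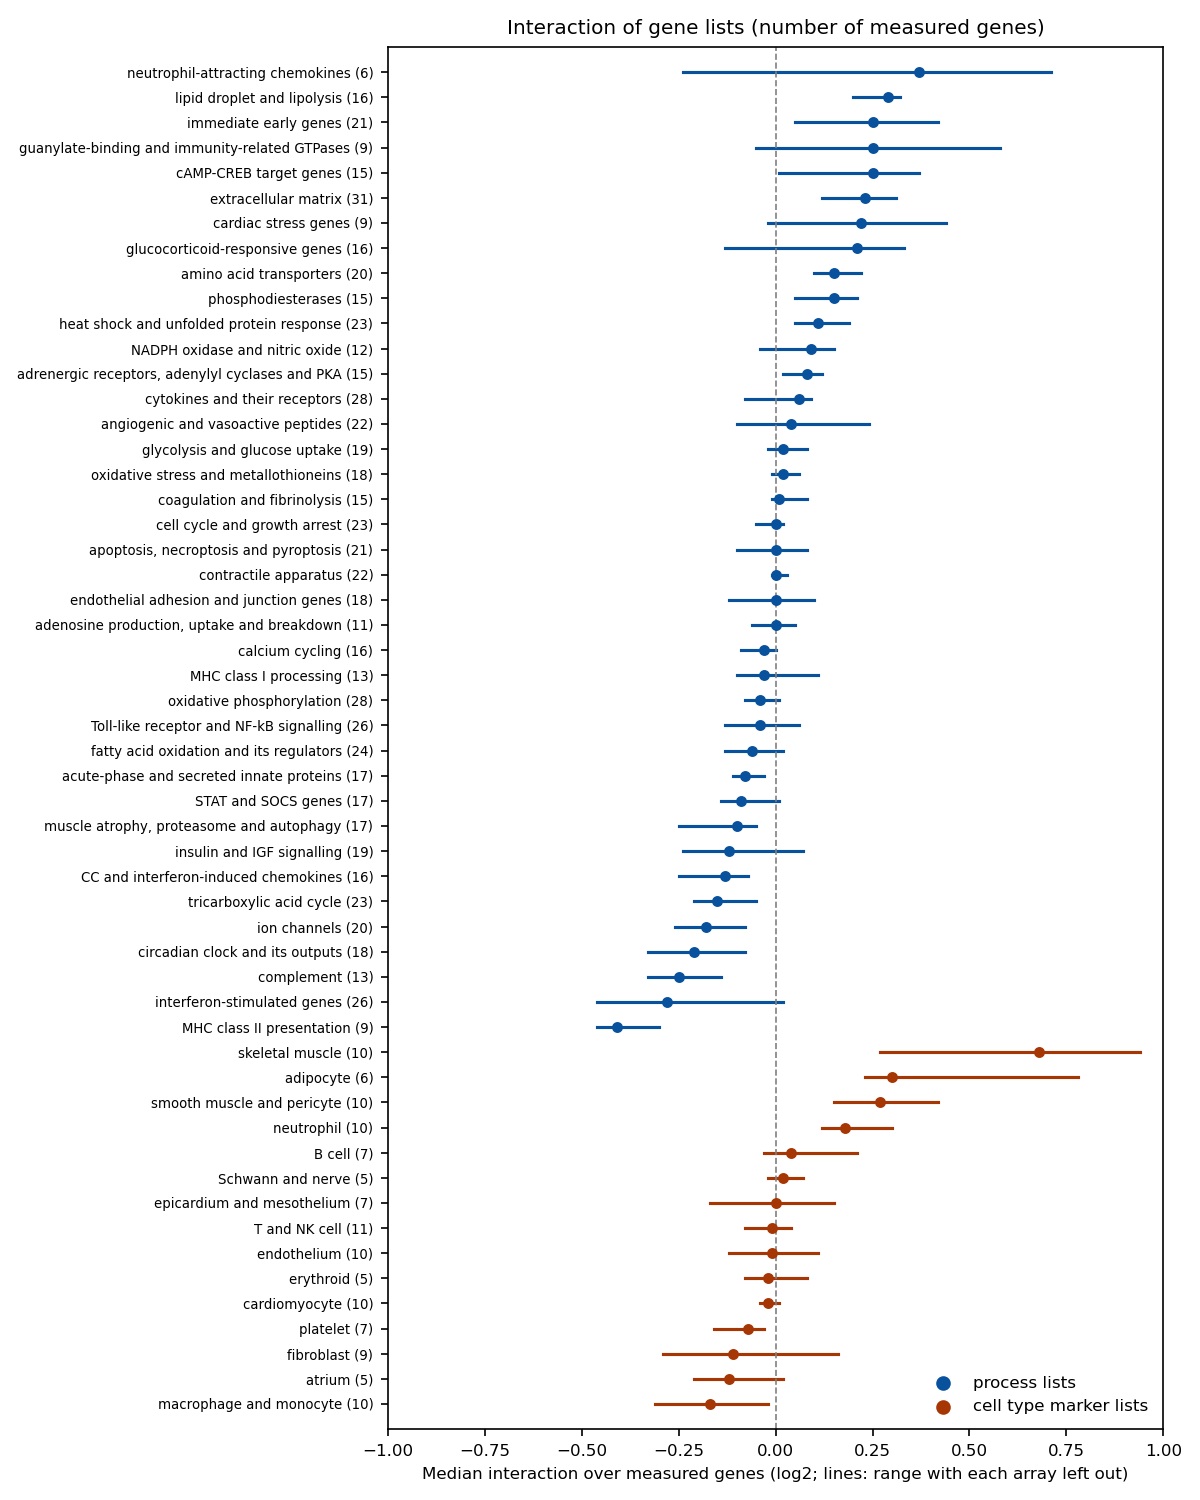
Median interaction (log2) over the measured genes of each list (points; number of genes in brackets) and its range with each of the 16 arrays left out (lines), for process lists in blue and cell type marker lists in red. MHC class II presentation is lowest at -0.41 and skeletal muscle markers highest at 0.68, and the lines of the neutrophil-attracting chemokines and the guanylate-binding proteins cross 0.

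Full separation of LPS and saline arrays in opposite directions was seen in few genes. This count misses any change of direction in which arrays overlap, and 12662 genes had no called response in either genotype. In 2 of 18193 genes (0.011%), the LPS arrays lay wholly above the saline arrays in 1 genotype and wholly below them in the other. Stab2, a scavenger receptor of sinusoidal endothelium, read 3.74, 3.90, 3.73 and 3.77 and then 4.11, 3.96, 3.98 and 4.92 in wild-type hearts. The knockout values were 4.00, 4.03, 3.94 and 3.92 and then 3.44, 3.76, 3.68 and 3.90. Neither response was called, the interaction was -0.73 ± 0.23, and these 2 genes were chosen after their values were seen. The other, Zfp853, a zinc finger gene, had a wild-type difference of 0.13 and a knockout difference of -0.24.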

How the data were processed

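Total RNA from 16 samples of ventricular myocardium was labelled as biotinylated cRNA and hybridised to Affymetrix arrays, 1 per sample. The deposited table holds log2 levels per probe set made with RMA, per the submitters' processing notes; its version and probe definitions are not given in these sources. Of 45101 probe sets, 64 controls, 932 with several symbols and 9160 unnamed here were left out. Of 34945 with 1 symbol, 34741 had an Entrez identifier in the RefSeq gene table (GRCm38.p6), which updated symbols. For 9010 genes with several probe sets, the one of highest mean over 16 arrays was used, which left 18193 genes.

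Limma 3.58.1 in R 4.3.3 was used to fit 1 mean for each group to all 16 arrays (eBayes with intensity trend, 12 residual degrees of freedom), and tested on simulated data. Tests are two-sided, p-values were adjusted by Benjamini-Hochberg over all genes, and an adjusted p under 0.05 counted as called. Errors after ± are limma standard errors unless marked SD. "Rose" and "fell" refer to called responses in that genotype. The mean LPS response is orthogonal to the interaction and defined LPS-responsive genes.

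Named genes were every called gene, the genes of smallest interaction p up to 24, the 8 largest mean responses, the 5 largest positive and negative interactions among LPS-responsive genes, genes with opposite called responses (none), the 3 members of smallest p in each of 55 lists (40 of processes, 15 of cell type markers), and other adenosine receptors. Of list members, some were picked for the text after their values were seen. Members and lists were chosen with earlier results of these data known, and lists are described without a test. Alternatives were a replicate block, other probe set choices, a filter on dim genes, renormalisation, other variance models, array weights and leaving out arrays. Promoters were searched for exact motif letters on both strands.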

Additional observations from a re-analysis of the deposited data

Results flagged for a closer look

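Among the 96 genes followed and the response score, 388 groups of 4 arrays were checked for an array far from the other 3, relative to the range of the group. There were 27 such cases, and chance gives about 1 in 20.

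Of these, 9 were wild-type LPS array 4. It was higher than the rest of its group for Crebrf (8.65), Car3 (7.19), Herpud1 (11.32), Adipoq (5.24) and Acta2 (10.21). It was lower for Mt2 (11.22), Inhbb (4.83), Ppargc1a (6.48) and Ccl11 (4.55). For Adipoq and Car3, both abundant in fat, the other wild-type LPS arrays lay between 3.33 and 3.45 and between 3.43 and 3.88. Its share in each gene's interaction is given by the values without it in the report, and no cause was tested.

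The remaining wild-type LPS case was Txlnb in array 3 (9.49). In wild-type saline hearts the cases were the response score of array 3 (0.025), Snhg11 in array 2 (4.78), Tslp in array 4 (3.61), Saa3 in array 3 (4.13), H2-Ab1 in array 1 (7.17), Pik3ca in array 2 (8.45) and Il18 in array 1 (4.57). In knockout saline hearts they were Cidec in array 4 (3.40), Znf41-ps in array 3 (3.49), Hecw2 in array 4 (4.38), Plin4 in array 4 (9.87) and Uqcrc2 in array 3 (13.2). In knockout LPS hearts they were Nectin3 in array 1 (6.67), Nfasc in array 2 (4.18), Gm17762 in array 1 (3.71), Klf15 in array 4 (8.42) and Scn4b in array 4 (7.98).

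In Stab2 (interaction -0.73) and Zfp853 (-0.37) every LPS array lay above the saline arrays in wild-type hearts and below them in knockout hearts. Limma did not call either difference (adjusted p = 0.959 for each).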

How the results depend on the processing

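The interaction stayed at 0 called genes in each of the 26 alternatives. One was the replicate block, where 765 genes had an unadjusted p under 0.05. Most same-number samples did not deviate together: 2 of 24 same-number pairs correlated over 0.1 (range -0.27 to 0.33), and 4 of 16 samples correlated best with their own number. The highest correlation, 0.33, was that of wild-type and knockout LPS arrays 4, which had the lowest response score of their groups. Whether these arrays share a factor was not tested. With each array left out, the interaction called 0 genes (lowest adjusted p 0.241) and 624 to 1335 genes had an unadjusted p under 0.05. The wild-type response called 3006 to 4902 genes, the knockout response 3871 to 5527 and the mean response 5854 to 7115. The share of larger knockout responses was 48.5% to 69.2%, the correlation 0.899 to 0.931, the slope 0.977 to 1.18, and the intervals inside -1 to 1 numbered 16243 to 17045. With each of the 34945 probe sets of 1 symbol tested on its own, those 3 responses called 6024, 7611 and 10729 probe sets, which are not counts of genes. Genes over the median gave a correlation of 0.936 and 9826 such intervals, fewer genes being tested. Array weights gave a share of 54.1% and a correlation of 0.935. Leaving out wild-type saline arrays 1 and 4 together gave 2061 wild-type calls, with fewer samples.

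Of 2376 values of named genes under alternatives, 2344 kept their direction and 32, in 8 genes, turned. The mean of all probe sets gave Cxcl9 0.27 and Ppargc1a -0.19. Array weights gave Saa3 0.03, BC023105 -0.27 and Ifit1 -0.22. Without both saline arrays Cxcl9 was 0.09, Mt2 0.07 and Adora3 -0.05. With single arrays left out, Saa3 ran from -0.19 to 0.12, BC023105 from -0.46 to 0.31, Cxcl9 from -0.42 to 0.16, Car3 from -0.25 to 1.08, Ifit1 from -0.32 to 0.53, Mt2 from -0.50 to 0.17 and Adora3 from -0.02 to 0.12. The cause was not tested.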
